A study of Mus musculus with 12 samples.

Results

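Doxycycline is the ligand of the Tet-On system and, apart from that, an antibiotic that acts on bacterial ribosomes and can slow the ribosomes of mitochondria. The 8 arrays examined here, of 12 in the series, were chosen by their labels so that cells given doxycycline could be set against cells given none: 6 exposed arrays (CTR, 16 hr and 24 hr) and 2 unexposed arrays (TC). All were MIN6 cells, a mouse insulinoma line used as a model of the pancreatic β cell, and each array measured total RNA on an Illumina MouseWG-6 v2 BeadChip. The question was which genes moved in 1 direction in all 3 exposed groups on both slides.

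The CTR cells were untransfected: they received lipofectamine without a vector and then 1 µg/ml doxycycline for a time that the labels leave out. The TC cells were transfected overnight with plasmids for rtTA, the doxycycline-dependent activator, and for miR-184 behind tetO, and received no doxycycline. The 16 hr and 24 hr cells carried the same plasmids and received 1 µg/ml doxycycline for 16 hr and 24 hr. Exposure was therefore not the only difference between the groups. CTR lacked the plasmids, the 16 hr and 24 hr cells also had the plasmid's miR-184 induced, and TC was the single unexposed group, so whatever set TC apart and exposure cannot be told apart. The later 48 hr and 72 hr arrays were left out of these comparisons and entered alternative fits only. Each group had 2 arrays here, although the design speaks of triplicates. Replicate 1 of every group lay on 1 slide and replicate 2 on the other, with the groups in the same order, so that a group and its place on a slide cannot be told apart. The design calls the replicates biological. No other label says that they were separate cultures, so the p values measure the spread between these arrays, which may be technical. The cells are 1 line throughout.

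Of 45281 probes, 16921 were detected (detection p under 0.01) on at least 2 of the 8 arrays, and 1 probe per gene left 11613 features, 9220 of them named genes and 2393 unnamed probes. The 8 arrays detected between 15243 (TC replicate 2) and 16303 (CTR replicate 1) probes each. The markers were checked against the label: all 9 β-cell markers on the array, Ins2, Pdx1 and Mafa among them, were detected, whereas none of the delta, fibroblast, leukocyte or endothelial markers was. The α-cell genes Gcg and Ttr were detected as well, as were Ppy of PP cells, the acinar marker Bhlha15 and the ductal marker Krt7, each on all 8 arrays, whereas 8 acinar and 4 ductal markers were not detected on any array. Summed over a list, the normalized signals of β-cell markers ran from 94063 to 101860 on exposed arrays and from 99173 to 100800 on TC arrays, those of α-cell markers from 38719 to 43093 and from 42136 to 49611. No marker of the 9 cell types passed the test of exposure. The other slide-wide quantity to keep in view is the spread between replicates, whose median SD was 0.118 to 0.145 on the log2 scale in the 4 groups.

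The sequence that the plasmid was built to deliver is shown first because it is what the 16 hr and 24 hr cells were induced to make and the untransfected CTR cells were not. Mature miR-184-3p lies at chr9:89802263-89802284 on the minus strand (RefSeq, GRCm38.p6), with its seed, bases 2 to 8, in capitals.
mmu-miR-184-3p: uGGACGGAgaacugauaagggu
A few genes described here also have their upstream sequence printed: Sct, which passed the test, Cdhr5, its neighbour on the chromosome, and Id2, a helix-loop-helix inhibitor. Each run holds the 250 bases before the start of the transcript that the RefSeq table uses, 5′ to 3′ on the gene's own strand, with every E-box (CANNTG, which reads the same way on both strands) in capitals. They lie at chr7:141279134-141279383, chr7:141276787-141277036 and chr12:25096093-25096342, all on the minus strand of GRCm38.p6. The annotated spans of Sct and Cdhr5 reach a short way past that start, so their runs overlap the genes there.
Sct: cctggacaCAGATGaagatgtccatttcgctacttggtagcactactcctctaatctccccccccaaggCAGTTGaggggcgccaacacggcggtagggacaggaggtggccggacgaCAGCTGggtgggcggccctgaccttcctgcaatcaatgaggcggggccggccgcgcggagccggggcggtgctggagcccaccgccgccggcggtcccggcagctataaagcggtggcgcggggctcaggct
Cdhr5: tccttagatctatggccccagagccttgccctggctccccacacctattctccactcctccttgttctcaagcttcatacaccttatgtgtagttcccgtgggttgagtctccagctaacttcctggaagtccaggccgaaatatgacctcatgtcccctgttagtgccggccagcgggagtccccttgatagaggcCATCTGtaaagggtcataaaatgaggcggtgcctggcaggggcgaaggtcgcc
Id2: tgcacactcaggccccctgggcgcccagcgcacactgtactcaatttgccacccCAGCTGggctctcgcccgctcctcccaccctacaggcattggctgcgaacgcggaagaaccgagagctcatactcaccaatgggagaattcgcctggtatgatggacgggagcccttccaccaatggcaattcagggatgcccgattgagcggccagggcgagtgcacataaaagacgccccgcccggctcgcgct
The Sct run holds 3 E-boxes, Cdhr5 holds 1 and Id2 holds 1, where 66.2% of the 32851 promoters in the table have at least 1 and the median is 1. A TATA box (TATAAA, either strand) occurs in the Sct run, 28 bases before the start, and in 12.4% of all promoters. A GC box (GGGCGG, either strand) occurs 2 times in Sct, 0 times in Cdhr5 and 1 time in Id2, against 32.7% of promoters with any. These are matches of letters, not sites that the arrays tested.

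Against TC, 4 genes were higher in the exposed cells at an adjusted p under 0.05 and none was lower (0.0344% and 0% of features; limma with the slide as a block and Benjamini-Hochberg adjustment over 11613 features). They were Plekhg6, a guanine nucleotide exchange factor, Sct, the gene of the gut hormone secretin, Rflna, a filamin-binding protein of the actin cytoskeleton, and Shh, the Sonic hedgehog ligand. Each was about 1.6 to 2.1 times the TC level, and each was above the TC array of its slide in all 6 exposed arrays. At an unadjusted p under 0.05 the count was 677 (5.83%), with 368 higher (3.17%) and 309 lower (2.66%). With the arrays scaled by their medians in place of quantiles, 7 features passed, 6 higher and 1 lower.

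**Figure D1:**
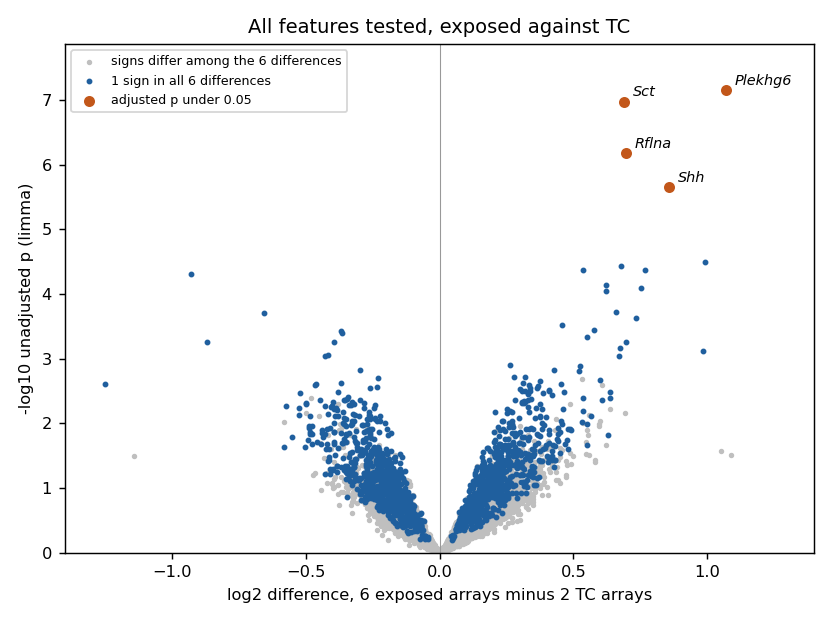
Log2 difference of the 6 exposed arrays from the 2 TC arrays (x axis) against -log10 of the unadjusted limma p (y axis) for 11613 features; blue points have 1 sign in all 6 within-slide differences, grey points do not, and orange points passed an adjusted p of 0.05. The 4 genes that passed, Plekhg6, Sct, Rflna and Shh, all lie to the right of 0.

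The deposited signal of Sct was 10001 and 14943 on TC replicates 1 and 2, and 17895 and 27505 in CTR, 16271 and 18965 at 16 hr, 17552 and 19643 at 24 hr. After normalization the log2 signal was 13.40 and 13.59 in TC, 14.07 and 14.39 in CTR, 14.11 and 14.08 at 16 hr, 14.24 and 14.21 at 24 hr. All 6 exposed arrays stood above both TC arrays, and the CTR arrays spanned the values at 16 hr and 24 hr. The difference was 0.69 (SE 0.08, adjusted p = 0.000622 by limma), or 1.61-fold.

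Plekhg6 showed the widest gap. Its log2 signal was 7.13 and 8.07 in TC, 8.55 and 8.94 in CTR, 8.20 and 8.95 at 16 hr, 8.36 and 9.02 at 24 hr. The lowest exposed array, 16 hr on slide 1, was just above the higher TC array, while within a slide the gap was 0.87 or more. The difference was 1.07 (SE 0.12, adjusted p = 0.000622 by limma), or 2.10-fold.

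Rflna read 11.12 and 11.23 in TC, 11.86 and 11.99 in CTR, 11.78 and 11.85 at 16 hr, and 12.02 and 11.75 at 24 hr on the log2 scale. Its TC arrays were close to each other and below every exposed array. The difference was 0.70 (SE 0.09, adjusted p = 0.00259 by limma).

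Shh depended on the slide. Its log2 signal was 7.65 and 8.96 in TC, 8.82 and 9.88 in CTR, 8.37 and 9.60 at 16 hr, 8.60 and 9.69 at 24 hr. Slide 2 was brighter in every group, so the TC array of slide 2 exceeded all exposed arrays of slide 1 and the groups overlapped until the slide was taken into account. The difference was 0.86 (SE 0.12, adjusted p = 0.00645 by limma), and a second Shh probe gave 0.45 (SE 0.23, unadjusted p = 0.0603 by limma).

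**Figure D2:**
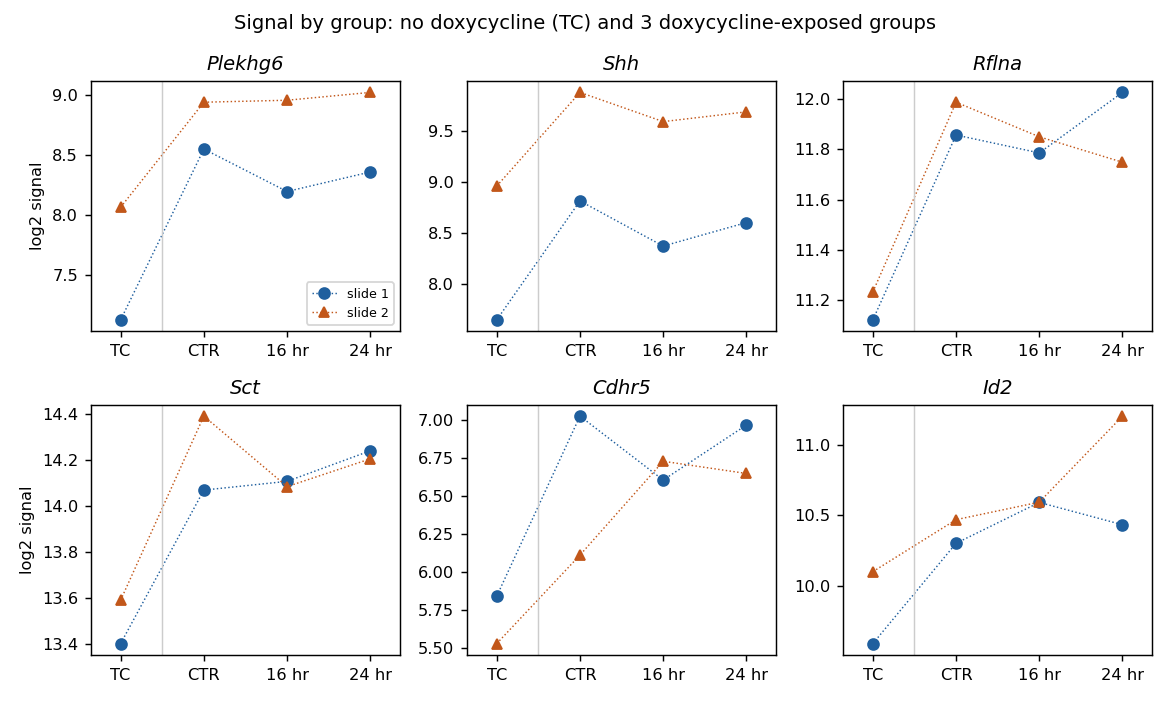
Normalized log2 signal (y axis, a separate scale in each panel) of 6 genes on the 8 arrays, by group (x axis); circles are slide 1, triangles slide 2, and dotted lines join the arrays of a slide. On each slide the TC array is the lowest of the 4, whereas for Shh the TC array of slide 2, at 8.96, is above the exposed arrays of slide 1.

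Leaving out a TC array changed the calls. Without TC replicate 1 none of them passed: the adjusted p became 0.0697 for Plekhg6, 0.0695 for Sct, 0.14 for Rflna and 0.198 for Shh, with differences of 0.90, 0.64, 0.63 and 0.76. Without TC replicate 2, Plekhg6 and Sct passed and Rflna and Shh did not (adjusted p = 0.084 and 0.107 by limma). The fit without the slide block called 2 of the 4, Rflna and Sct, and a fit of all 12 arrays called 0 of them.

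Each exposed group was then set against TC on its own, in a fit with 4 group means plus slide. The 3 comparisons share the TC arrays. CTR had 21 features past the adjusted threshold (0.181%; 14 higher, 0.121%, and 7 lower, 0.0603%), 16 hr had 6 (0.0517%; 5 higher, 0.0431%, and 1 lower, 0.00861%) and 24 hr had 11 (0.0947%; 9 higher, 0.0775%, and 2 lower, 0.0172%). With median scaling the splits were 22 higher and 5 lower, 4 and 2, and 9 and 13. Sct, Plekhg6 and Rflna passed in all 3, with differences in CTR, 16 hr and 24 hr of 0.73, 0.60 and 0.73 for Sct, of 1.14, 0.98 and 1.09 for Plekhg6, and of 0.74, 0.64 and 0.71 for Rflna. At 16 hr no gene passed as higher without TC replicate 1 or without either 16 hr array, and without the slide block none passed in any of the 3 comparisons. At an unadjusted p under 0.05 (limma, either direction) those fits held 689 features without TC replicate 1, 629 and 1051 without 16 hr replicate 1 and 2, and, without the block, 190 in CTR, 197 at 16 hr and 269 at 24 hr. Shh passed in CTR (1.05) and at 24 hr (0.84), and at 16 hr its difference of 0.68 had an adjusted p of 0.059 by limma. Angpt2, a ligand of the endothelial receptor Tie2, passed in CTR (0.74) and at 24 hr (0.77). Tph1 passed in CTR (0.99), and Id2 at 24 hr (0.97).

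The rule's own count was wider. A total of 735 features were higher (6.33%) and 785 lower (6.76%) than the TC array of their slide in all 6 differences, and 232 (2%) and 310 (2.67%) (542 together, 4.67%) did not overlap with TC at all. The 6 differences share 2 TC arrays, so a low or high TC array on each slide is enough to give a feature 1 sign. Counts of this size can arise without any effect of exposure. They are a description and do not show that these features moved together with exposure. Of the features with 1 sign, 270 higher (2.32% of all 11613 features) and 244 lower (2.1% of all) also had an unadjusted p under 0.05 by limma. The genes named next fill the list to 12 in each direction by p, and none of the other 20 passed the adjusted test.

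Cdhr5 and Sct are neighbours. Cdhr5, a cadherin of intestinal brush border microvilli, spans chr7:141269080-141276795 and Sct chr7:141278329-141279174 (GRCm38.p6), with 1533 bases and no annotated gene between them. Cdhr5 read 5.84 and 5.53 in TC, where it was detected on 1 of 2 arrays, and 7.02 and 6.11 in CTR, 6.60 and 6.73 at 16 hr, and 6.96 and 6.65 at 24 hr on the log2 scale. All exposed arrays were higher, from a level near the background. The difference was 0.99 (SE 0.18, adjusted p = 0.0627 by limma).

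Among genes of secreted signals, Tph1, which encodes the first enzyme of serotonin synthesis, read 9.65 and 9.51 in TC, 10.81 and 10.32 in CTR, 10.12 and 10.43 at 16 hr, and 10.28 and 10.11 at 24 hr. Every exposed array was above both TC arrays, with CTR replicate 1 the highest. The difference was 0.77 (SE 0.14, adjusted p = 0.0627 by limma). Angpt2 read 8.63 and 9.80 in TC and from 9.28 through a median of 9.96 to 10.50 on the exposed arrays, which overlapped with TC because slide 2 was brighter. Its difference was 0.68 (SE 0.12, adjusted p = 0.0627 by limma).

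The Id genes encode helix-loop-helix proteins without a DNA-binding region, which hold basic helix-loop-helix factors away from E-boxes. Id2 read 9.59 and 10.10 in TC, 10.30 and 10.47 in CTR, 10.59 and 10.59 at 16 hr, and 10.43 and 11.20 at 24 hr. All 6 exposed arrays were higher than TC, and 24 hr replicate 2 stood apart above the rest. The difference was 0.75 (SE 0.15, adjusted p = 0.0846 by limma), and the other Id2 probes gave 0.45 and 0.49. Id1 read 10.55 and 10.78 in TC, 11.48 and 11.00 in CTR, 11.14 and 11.39 at 16 hr, 11.24 and 11.46 at 24 hr, again without overlap, with a difference of 0.62 (SE 0.12, adjusted p = 0.084 by limma). Id3, named here after its values were seen, differed by 0.38 (SE 0.10, adjusted p = 0.622 by limma).

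The remaining higher genes of the 12 were Scnn1b, Tm6sf1 and Syt7. Scnn1b, the β subunit of the epithelial sodium channel, read 9.72 and 10.48 in TC and 10.36 to 10.85 (median 10.67) on the exposed arrays, a difference of 0.54 (SE 0.10, adjusted p = 0.0627 by limma). Tm6sf1 read 6.71 and 7.40 in TC and 7.21 to 8.29 (median 7.70) in the exposed, a difference of 0.66 (adjusted p = 0.166 by limma), and its other probe gave 0.56. Syt7, a calcium sensor of insulin granule exocytosis, read 8.20 and 8.54 in TC, 8.53 and 8.97 in CTR, 9.12 and 9.09 at 16 hr, and 8.88 and 9.07 at 24 hr. For all 3 the ranges overlapped with TC across slides, in Syt7 by a single exposed array (CTR replicate 1) that was just below TC replicate 2.

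On the lower side the 12 genes covered several compartments, and none reached the threshold. Tmem45b, a transmembrane protein, read 8.34 and 8.97 in TC, 8.06 and 8.05 in CTR, 7.85 and 8.17 at 16 hr, and 8.05 and 7.82 at 24 hr. The difference was −0.66 (SE 0.14, adjusted p = 0.166 by limma), with all exposed arrays below both TC arrays, and the gap was −0.35 on slide 1 and −0.96 on slide 2.

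Genes of mitochondrial proteins were represented by Chchd10, a protein of the intermembrane space, and Ethe1, a persulfide dioxygenase. Chchd10 read 13.34 and 13.13 in TC and 12.76 to 13.01 (median 12.85) on exposed arrays, a difference of −0.37 (SE 0.08, adjusted p = 0.239 by limma). Ethe1 read 9.19 and 9.22 in TC and 8.72 to 8.94 (median 8.84) on exposed arrays, a difference of −0.37 (SE 0.10, adjusted p = 0.622 by limma). Neither gene overlapped between the groups.

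Smap2, Hip1r and Psmd14 were also among the 12. Smap2, a GTPase-activating protein for Arf, read 13.79 and 13.74 in TC and 13.24 to 13.69 in the exposed (−0.36, adjusted p = 0.248 by limma), and its other probes gave −0.33 and −0.11. Hip1r, which links clathrin coats to actin, read 9.13 and 9.18 against 8.59 to 8.91 (−0.42, adjusted p = 0.375 by limma). Psmd14, the deubiquitinase of the proteasome lid, read 10.34 and 10.37 against 9.69 to 10.19 (−0.43, adjusted p = 0.375 by limma), with −0.23 on its other probe. In all 3 genes every exposed array was below both TC arrays.

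The other lower genes were Asah1 (acid ceramidase, −0.23), Nudt11 (a hydrolase of inositol pyrophosphates, −0.26), Cldn11 (a tight junction claudin, −0.46), Fam189a1 (−0.46) and H2ac20 (a histone H2A, −0.23), each with an adjusted p of 0.622 by limma and no overlap with TC. H2ac20 belongs to a family of near-identical histone genes whose transcripts can share a probe, and its other probe gave −0.01, so its value is uncertain. The second probe of Fam189a1 gave −0.56 and that of Asah1 gave −0.10.

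Cxcl10, an interferon-induced chemokine, had the lowest difference of the 12 and was not shared evenly. It read 7.10 and 6.39 in TC, 4.58 and 4.65 in CTR, 5.95 and 5.94 at 16 hr, and 6.26 and 5.59 at 24 hr. It was detected on both TC arrays, on no CTR array and on 2 of the 4 induced arrays. The difference over all exposed arrays was −1.25 (SE 0.35, adjusted p = 0.622 by limma). Against TC alone, CTR differed by −2.13 (adjusted p = 0.000318 by limma), a level in TC at least 1.9-fold that in CTR, where the signal was not well above background. The bound takes, for each CTR array, the lowest signal that was detected there. At 16 hr and 24 hr the differences were −0.80 and −0.82.

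**Figure D3:**
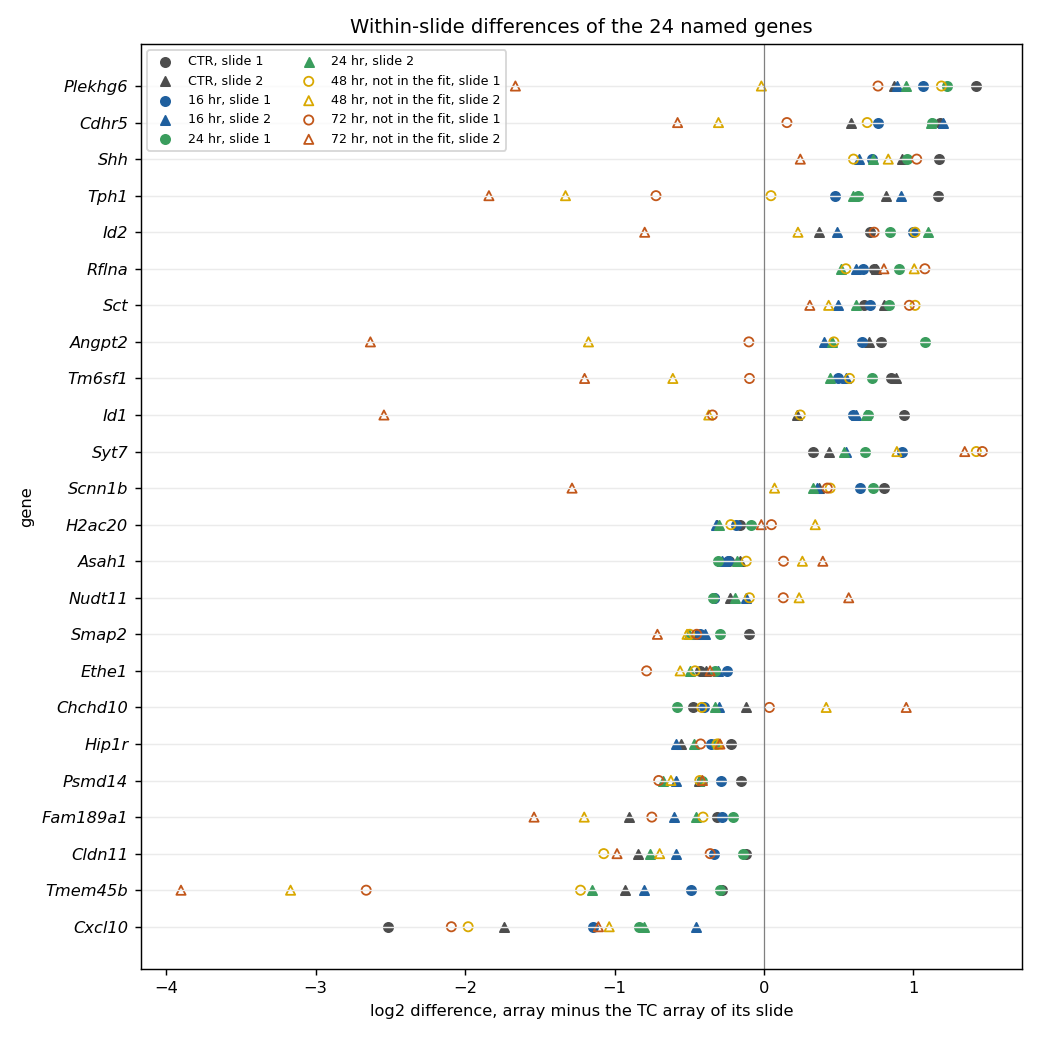
Difference of each array from the TC array of its slide (x axis, log2) for the 24 named genes (y axis); filled marks are the CTR, 16 hr and 24 hr arrays, open marks the 48 hr and 72 hr arrays that were not part of the comparison, circles slide 1 and triangles slide 2. The filled marks of a gene lie on 1 side of 0 by the rule that named it, whereas open marks of Plekhg6 reach −1.66 and those of Tmem45b reach −3.90.

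The 48 hr and 72 hr arrays, also at 1 µg/ml doxycycline, were read beside these genes as values only, since they share the TC arrays. In the order 48 hr and 72 hr on slide 1, then 48 hr and 72 hr on slide 2, Rflna differed from the TC array of its slide by 0.55, 1.08, 1.01 and 0.80. Sct differed by 1.01, 0.97, 0.43 and 0.31, and Shh by 0.60, 1.02, 0.83 and 0.24. These 3 genes were above TC on all later arrays. Plekhg6 differed by 1.19, 0.76, −0.02 and −1.66, above TC on slide 1 and at or below it on slide 2. Syt7 was further above TC (1.42, 1.46, 0.89 and 1.34), and Tmem45b further below (−1.23, −2.66, −3.17 and −3.90). The other lower genes did not all follow Tmem45b. Chchd10 (−0.42, 0.04, 0.42 and 0.95), Asah1 (−0.12, 0.13, 0.26 and 0.39) and Nudt11 (−0.10, 0.13, 0.24 and 0.57) turned above TC, whereas Smap2 (−0.50, −0.45, −0.51 and −0.71) stayed below. Tph1 was below TC on 3 of the 4 arrays (0.05, −0.72, −1.33 and −1.84), as was Id1 (0.24, −0.34, −0.37 and −2.54).

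The gene lists were chosen with earlier results of these data known, so the counts below describe the lists and do not test them. Among 21 gene lists, members passed the test of exposure in 1, that of neuropeptides and secreted signals. Of its 35 genes 16 were tested, 2 were called, both higher (Sct and Shh, where 0.0344% of all features were called), and its median difference was 0.10, beside −0.00 over all features. In this list 5 of the 16 genes were higher in all 6 differences and 0 lower, where 6.33% of all features were higher and 6.76% lower. Cck, the cholecystokinin gene, differed by 0.26 (SE 0.07, adjusted p = 0.492 by limma). Nmu, which encodes neuromedin U and is among the 16, was not detected on the TC or CTR arrays. It met the detection filter through the induced arrays alone and is described with the induced cells.

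Genes of mitochondrial translation, the textbook process that doxycycline can slow, gave a median near 0. The arrays measure the RNA of these genes and not the rate of that process. Of 85 listed genes, 79 were tested, 0 passed, and the median difference was −0.01, with list medians of −0.02 in CTR, −0.00 at 16 hr and −0.03 at 24 hr. In all 6 differences 10 of its 79 tested genes were lower and 1 was higher, where 6.76% of all features were lower and 6.33% higher. Both directions together made 13.9% of the list, where 13.1% of all features had 1 sign. Mrpl16, a protein of the large mitochondrial ribosomal subunit, had its smallest p (−0.32, SE 0.10, adjusted p = 0.66 by limma). The 67 nuclear genes of the respiratory chain had a median of 0.02 and 0 calls, with Cox7a2, a subunit of cytochrome c oxidase, at −0.34 (adjusted p = 0.633 by limma). The 19 mitochondrial chaperones and proteases had a median of −0.05 and 0 calls. Clpx, the unfoldase of the matrix protease ClpXP, differed by −0.40 (adjusted p = 0.633 by limma), and its second probe gave −0.07.

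Stress lists also had 0 calls each. The ATF4 and amino acid response list (34 tested) had a median of −0.02, with 0.09 in CTR and −0.14 at 16 hr, and the unfolded protein response list (25 tested) had −0.07. In the latter Hspa5, the chaperone BiP of the endoplasmic reticulum, differed by −0.39 (SE 0.15, adjusted p = 0.786 by limma) and was below TC on all 6 arrays. The interferon list (17 tested) had a median of −0.08 and the immediate early genes (14 tested) −0.16, with 4 of the 14 lower in all 6 differences and 0 higher, where 6.76% of all features were lower and 6.33% higher. Fos, an immediate early transcription factor, differed by −0.45 (adjusted p = 0.66 by limma).

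**Figure D4:**
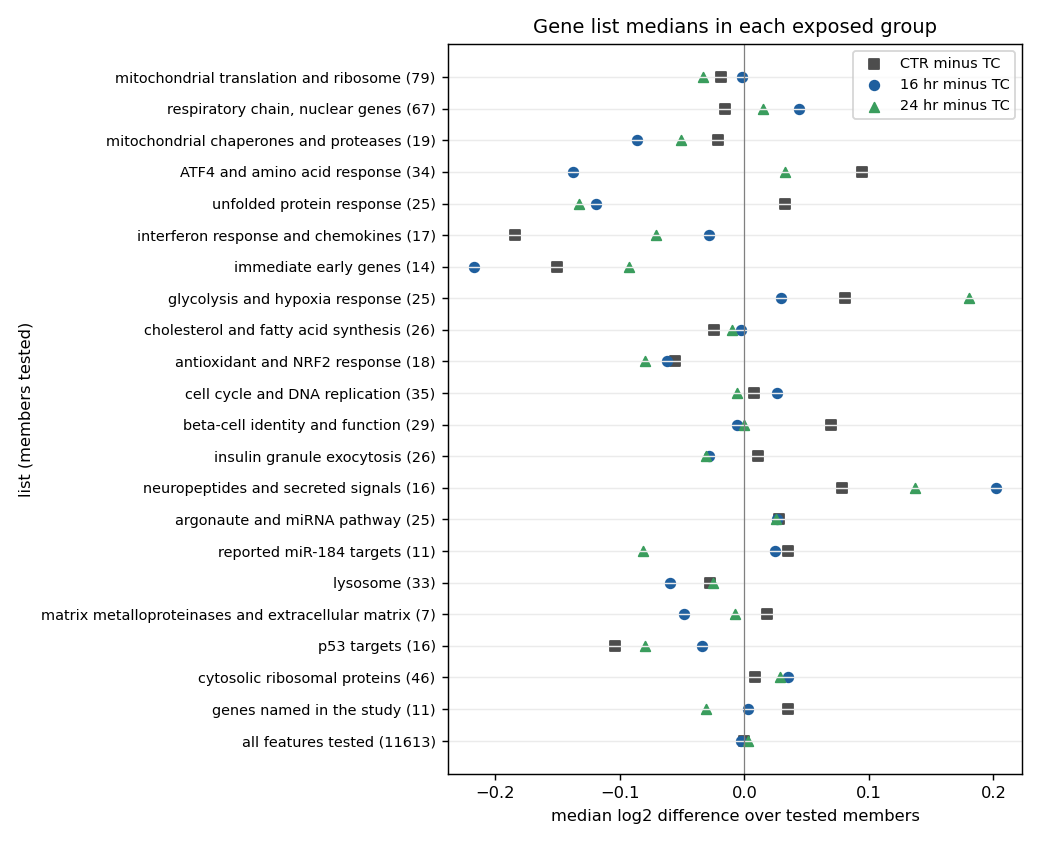
Median log2 difference from TC (x axis) over the tested members of each gene list (y axis, number tested in parentheses) for CTR, 16 hr and 24 hr, with all 11613 features as the last line. List medians lie between −0.22 and 0.20, and that of mitochondrial translation lies between −0.03 and −0.00.

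Genes of the β cell itself differed little. The identity and function list (29 tested) had a median of 0.02 and 0 calls. In it Chgb, a granin of the secretory granule, differed by 0.20 and Mafa, a β-cell transcription factor, by −0.24 on the probe used and by 0.16, the other way, on its second probe. Ins2 sat at the top of the quantile scale on every array, where normalization fixes its value, so the arrays cannot show a change in it. The list of insulin granule exocytosis (26 tested) had a median of −0.04. In it Syt7 was followed by Cplx2, a complexin (0.42, adjusted p = 0.633 by limma), and Syt9, another synaptotagmin (0.26). Glycolysis and hypoxia genes (25 tested) had a median of 0.10 and 0 calls. The 25 include Pigq and Eno1b, to which the listed names Gpi1 and Eno1 were matched as synonyms. Gpi1 and Eno1 themselves are therefore not among them. In the respiratory chain list the name Uqcrb was matched to Uqcrq in the same way. Ldha, lactate dehydrogenase A, had the highest difference of all features (1.09, SE 0.46, adjusted p = 0.818 by limma). Its values in the 3 groups were 0.30, 1.20 and 1.77, but the slides disagreed. At 16 hr it differed from TC by 2.41 on slide 1 and −0.01 on slide 2, and in CTR by −0.13 and 0.73. Ldha therefore did not have 1 sign in all 6 differences. In the lysosome list (33 tested, median −0.03) Smpdl3a, an acid sphingomyelinase-like phosphodiesterase, differed by 0.55 (SE 0.13, adjusted p = 0.268 by limma) and was higher on all 6 arrays. The p53 targets (16 tested) had a median of −0.10, the antioxidant genes (18) −0.05, the cholesterol and fatty acid genes (26) −0.01, the cell cycle genes (35) 0.00 and the cytosolic ribosomal proteins (46) 0.04, all with 0 calls. The argonaute and miRNA list (25 tested) had a median of 0.01, and Ago2, the Argonaute protein of the study's title, differed by −0.18 (adjusted p = 0.926 by limma). The reported miR-184 targets (11 tested) had a median of −0.07, the matrix genes (7) 0.07 and the genes named in the study (11) 0.00, again with 0 calls. Medians of the miR-184 targets were 0.03 in CTR, 0.02 at 16 hr and −0.08 at 24 hr. Exposed against TC pools CTR, without the plasmids, with induced cells, so it is no measure of the response to miR-184. The study reported several predicted targets, Ago2 among them, as lowered in its array and luciferase experiments.

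The exposed groups were compared with one another to find genes that do not share 1 response. The contrast holds no TC value, but it was taken from the fit of 4 group means plus slide, in which the TC arrays add to the estimate of the spread and of the slide. Between CTR and the mean of 16 hr and 24 hr, 46 features passed (0.396%), 11 higher (0.0947%) and 35 lower (0.301%) in CTR. These cells differed in the plasmids, in the induction of miR-184 and perhaps in exposure time, which cannot be told apart. When the arrays were scaled by their medians instead of quantiles, the median of all features moved to 0.16 and the count became 609, with 577 higher and 32 lower in CTR, so that differences here are relative to the quantile scale. Without the slide block none passed, where 401 had an unadjusted p under 0.05 (limma), against 1228 (10.6%) with the block.

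Laptm4a, a lysosomal membrane protein, differed most. It read 11.24 and 11.73 in CTR, close to the 11.06 and 11.39 of TC, and 9.09 and 9.85 at 16 hr and 9.01 and 9.58 at 24 hr. CTR and TC stood together above the induced arrays. The difference between CTR and the induced cells was 2.10 (SE 0.11, adjusted p = 3.58e-10 by limma). Pold2, a subunit of DNA polymerase δ, followed the same order, with 11.26 and 11.24 in CTR, 11.08 and 11.04 in TC and 10.05 to 10.68 in induced cells (0.84, SE 0.12, adjusted p = 0.00108 by limma).

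Cckbr, the receptor of gastrin and cholecystokinin, and Ctsh, the lysosomal protease cathepsin H, were highest in CTR on each slide. Cckbr read 8.93 and 10.07 in CTR, 7.86 and 9.02 in TC, 8.08 and 9.55 at 16 hr, and 8.28 and 9.40 at 24 hr (CTR minus induced 0.67, adjusted p = 0.0069 by limma). Ctsh read 10.20 and 12.72 in CTR, 9.34 and 11.48 in TC, 9.89 and 11.90 at 16 hr, and 9.82 and 11.96 at 24 hr (0.57, adjusted p = 0.0144 by limma). On both slides Ctsh was highest in CTR and lowest in TC, although slide 2 was far brighter in every group. Tbc1d19, a TBC domain protein, read 9.34 and 9.25 in CTR and 8.54 to 8.89 in induced cells (0.59, adjusted p = 0.0132 by limma).

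In the other direction Nmu was not detected on the CTR or TC arrays and was detected on all 4 induced arrays, at 6.00 and 6.30 at 16 hr and 6.22 and 6.95 at 24 hr. It was at least 1.46-fold higher in induced cells than in CTR and at least 1.35-fold higher than in TC (adjusted p = 0.00025 by limma for CTR against induced). Nmu met the detection filter only through these 4 induced arrays, where it was high, so its p is no independent support. Rnu6, the U6 small nuclear RNA, read at most 12.22 in CTR, 12.74 and 12.48 in TC and 12.80 to 13.34 in induced cells (−0.94, adjusted p = 5.21e-06 by limma). H2ac19, another histone H2A gene and open to the same doubt as H2ac20, read 8.91 in CTR and 9.78 to 9.88 in induced cells on slide 1, with CTR again the lower on slide 2 (−0.93, adjusted p = 0.000337 by limma). Pramel4 read 6.23 and 5.92 in CTR, near the background, and 6.98 to 7.79 in induced cells (−1.36, adjusted p = 0.000227 by limma). Trim43b was not detected on the CTR arrays and was detected on 3 of the 4 induced arrays, and the mean of those 4 was at least 1.21-fold higher (adjusted p = 0.00116 by limma). Trim43b, too, would not have met the detection filter without the induced arrays.

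**Figure D5:**
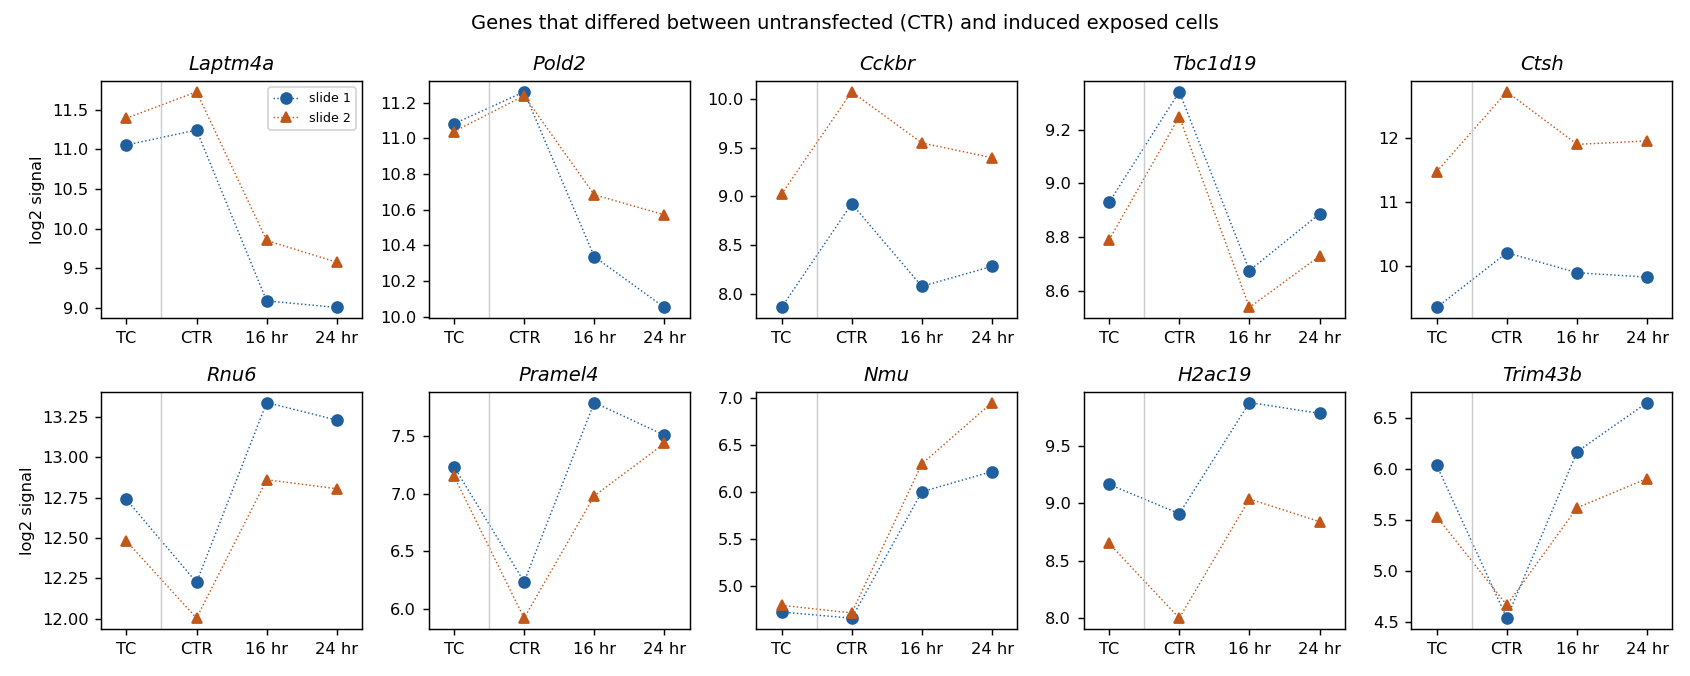
Normalized log2 signal (y axis, a separate scale in each panel) on the 8 arrays, by group (x axis), of the 10 genes with the smallest p between CTR and the mean of 16 hr and 24 hr, 5 in each direction; circles are slide 1, triangles slide 2, dotted lines join the arrays of a slide. Laptm4a lies at 9.01 to 9.85 in the induced cells and at 11.06 to 11.73 in CTR and TC.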

How the data were processed

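Per the labels, MIN6 cells were harvested in Trizol and their RNA was amplified with biotin for Illumina MouseWG-6 v2 arrays. The authors deposited signal intensities per probe without normalization, together with detection p-values, and normalized intensities on a linear scale, for which the submitters' processing notes name lumi. Their minimum, median and maximum are equal on every array, as quantile normalization leaves them. No mapped columns of other samples were present (0).

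From the deposited intensities, background was corrected with negative controls inferred from the detection p-values and all 12 arrays were quantile normalized and put on the log2 scale (neqc, offset 16; limma 3.58.1, R 4.3.3; figures in Python 3.11.15). Values of a fold are therefore on the log2(signal + offset) scale, which understates changes of dim probes. Probes were kept with a detection p under 0.01 on 2 or more of the 8 arrays, and of several probes of a gene the one with the highest mean was used. This filter can be met more easily through the 6 exposed arrays than through the 2 TC arrays. Of the features kept, 323 were not detected in TC and 3 were not detected in the exposed. Gene names came from the platform annotation, where 34885 probes had 1 symbol, 18 had several and 10378 had none. Exposed against TC was 1 coefficient plus the slide (lmFit, eBayes with trend, 5 residual degrees of freedom), with Benjamini-Hochberg adjustment over 11613 features. The groups shared replicate numbers, and the labels put each number on 1 slide: across 6 pairs of groups, same-numbered arrays had residual correlations of 0.473 to 0.636, so the number paired the arrays. The scripts were tested on simulated data.

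The arrays, genes and lists were chosen with earlier results of these data known. Named were, of features with 1 symbol and 1 sign in all 6 differences, 12 in each direction past the threshold or else by p, up to 4 members of each list by p, and 5 in each direction between CTR and the induced cells. Of the 24 named genes 14 had a promoter in the RefSeq table. The number of arrays limits the precision.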

Additional observations from a re-analysis of the deposited data

Results flagged for a closer look

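Id2 was flagged because 1 of its 6 exposed arrays, 24 hr replicate 2, stood away from the rest: it read 11.20 where the next array read 10.59, a gap that was 0.677 of the whole range, past the critical value of Dixon's test for 6 arrays. It was the only such gene among the 24 named, and chance flags about 1 group in 20.

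Other results were flagged because CTR and the induced cells, all exposed, differed by a test of that difference. The difference, CTR minus the mean of 16 hr and 24 hr, was 2.10 for Laptm4a, 0.84 for Pold2, 0.67 for Cckbr, 0.59 for Tbc1d19 and 0.57 for Ctsh. It was −1.68 for Nmu, −1.48 for Trim43b, −1.36 for Pramel4, −1.32 for Cxcl10, −0.94 for Rnu6 and −0.93 for H2ac19. Nmu, Trim43b and Cxcl10 were not well above background on either CTR array, so that their fitted differences are no measured size: their bounds were at least 1.46-fold, 1.21-fold and 1.09-fold higher in induced cells. Of these, Cxcl10 is also among the 12 lower genes of the comparison with TC.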

How the results depend on the processing

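Against TC, the same 4 genes and no others passed with the arrays normalized alone, another offset, no background correction and the authors' normalized values. The count was also these 4 with every probe, no filter, a filter on all 8 arrays, and without the 16 hr or the 24 hr group. It was 2 without the replicate block (of the 4, Rflna and Sct), 20 with 4 group means (18 with 1 sign in all differences), 25 without CTR, 7 with median scaling and 1 without a variance trend. With all 12 arrays it was 1 (Laptm4a; 0 with 1 sign), and with the 48 hr and 72 hr arrays added it was 0. Those fits had 300 and 351 features at an unadjusted p under 0.05. The methods' t-test gave 383 at their threshold (357 with 1 sign) and 0 after Benjamini-Hochberg. Leaving out 1 array at a time gave 2 to 17, with 2 without TC replicate 1 (0 of the 4), 2 without TC replicate 2, 17 without CTR replicate 1, 7 without CTR replicate 2 and 7 without 16 hr replicate 1.

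For the single groups the counts without the replicate block were 0 in CTR, at 16 hr and at 24 hr, and with all 12 arrays 1, 1 and 2. Every probe gave 32 in CTR, no filter 3 at 16 hr and median scaling 22 at 24 hr (9 higher, 13 lower). With 1 array left out they ran from 3 to 24 (CTR), 1 to 6 (16 hr) and 3 to 39 (24 hr). Between CTR and induced cells 0 passed without the replicate block, 5 with all 12 arrays, 609 with median scaling and 7 to 41 with 1 array left out. The cause was not tested. None of the 24 genes named in the comparison with TC, or of the 10 in that of CTR with induced cells, turned its direction under the alternatives run. For the 24 this was largely fixed in advance, because they were chosen for 1 sign in all 6 differences. A fit that leaves out an array or a group averages differences of that same sign, so it could not turn them. Other list members were not rerun. With 2 unexposed arrays, and signals near background for Cdhr5, Cxcl10, Hspa5, Nmu, Pramel4 and Trim43b, small differences were not measurable.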
